A study of Arabidopsis thaliana with 97 samples.

Results

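A group of 83 nuclear genes of Arabidopsis gave a short pulse of transcript in wild-type Col-0 leaf discs treated with the bacterial flagellin peptide flg22. They were chosen by their mean level over the 3 Col-0 libraries of each time point, from 27600 sense nuclear loci that had a tag, with levels in tags per 1000000 tags of the library (TPM). A gene was kept when its highest mean, over water and 7 times in flg22, lay at 8 or 15 min, was 20 TPM or more, was at least 4 times the water mean plus 1, and was at least 4 times the 60 min mean plus 1. The peak was at 15 min for 78 of the 83 and at 8 min for the other 5. Since the Col-0 libraries chose the genes, their Col-0 levels are given as a description without a test, and every comparison tested below is between libraries of npr1-1, jar1-1 and ein2-5. The Col-0 libraries share in the filter, the scaling and the estimate of spread of the 1 model behind these tests.

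Flg22 is the conserved stretch of flagellin that plants recognise through the receptor kinase FLS2. Its perception is known to set off an influx of calcium, a burst of reactive oxygen and MAP kinase cascades before transcription of defence genes begins. Early response genes of this kind often encode transcription factors, calcium sensors, ubiquitin ligases and enzymes that remove poly(A) tails, and their messages are commonly short-lived. NPR1 is the main transducer of salicylic acid signals, JAR1 makes the active conjugate of jasmonic acid, and EIN2 passes ethylene signals on from the endoplasmic reticulum.

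All libraries came from plants of the Col-0 background grown for 5 weeks, as leaf discs that were cut and kept in water until the next day, when the water was replaced by fresh water or by 100 nM flg22. Each of the 4 genotypes (wild type Col-0 and the mutants npr1-1, jar1-1 and ein2-5) had 3 libraries after 8 min in water and 3 after each of 8, 15, 30 and 45 min and of 60, 120 and 180 min in flg22, which gave 96 libraries in all. Each mutant is 1 allele, leaf discs hold mesophyll, epidermis and veins together, and the study calls the replicates biological ones. The labels do not say whether they were separate plants, so p-values measure the spread between libraries. Water was sampled at 8 min only, so that all times of a genotype share 1 set of 3 water libraries. From 15 min on, a response to flg22 therefore cannot be told apart from a later response to the change of liquid or from the time of day.

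EXPRSS Tag-seq counts 1 tag near the 3′ end of each cDNA, so that levels of different genes can be set side by side without a correction for length. Libraries held 388691 to 2415393 tags, of which 3.24% to 40.9% were tags of the plastid 23S rRNA gene. The upper limit given below for a level without tags covers counting error only. The smallest library was replicate 3 of ein2-5 at 15 min, beside 1889711 and 1590919 tags in the others of its group. The highest 23S share was that of replicate 1 of ein2-5 in water. Marker genes of mesophyll summed to 14508 to 21679 TPM in Col-0 water libraries and to 10372 to 18430 TPM at 15 min. For guard cells the sums were 20.2 to 21.5 and 4.53 to 11.2 TPM. For phloem they were 29.8 to 85.1 and 37.0 to 79.7 TPM. Within the mesophyll list the Col-0 mean of RBCS1B went from 3701 to 811 TPM, and that of LHCB2.1 from 27.0 to 159 TPM. At 15 min in the mutants no tested marker gene was called higher. Of the 5 mesophyll markers 1 was called lower in npr1-1 and in jar1-1. Of the 3 guard cell markers 2 were tested. The part of these markers in the results was not tested. LHCB2.1, one of the 5 mesophyll markers, is itself one of the 83 genes. Within a genotype each replicate number was 1 sequencing lane and each time point 1 barcode, so that barcode and time cannot be told apart, nor can genotype and its set of lanes. The model behind the tests had no term for the lane, so libraries that share a lane were treated as independent. Water replicate 1 was the highest of the 3 water libraries for 64 of the 83 genes in npr1-1, 49 in jar1-1 and 47 in Col-0, and water replicate 3 for 50 in ein2-5, so counts that rest on water are given below without single replicates where this changes them. In bulk leaf discs fewer cells of a type and less RNA per cell cannot be told apart either.

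The upstream sequences of 6 genes are shown because they carry the DNA motifs taken up at the end, in genes from 3 functional classes: calcium sensors, RING ubiquitin ligases and zinc finger repressors. Each runs 5′ to 3′ over the 250 bases before the annotated transcript start, from RefSeq on the TAIR10.1 assembly, and all 6 genes lie on the minus strand. Capitals mark every match to 1 motif on either strand: CGCGTT, the rapid stress response element known as a target of calmodulin-binding CAMTA factors, in TCH2 (chr5:14999620-14999869) and CML23 (chr1:24771394-24771643), TTGAC, the core of the W-box that WRKY factors bind, in RDUF1 (chr3:17180560-17180809) and RDUF2 (chr5:24000167-24000416), and GCCGCC, the GCC box that ethylene response factors bind, in ZAT10 (chr1:9649324-9649573) and ZAT6 (chr5:1217363-1217612). A match on the other strand appears as the reverse complement, for example GTCAA for TTGAC.
TCH2: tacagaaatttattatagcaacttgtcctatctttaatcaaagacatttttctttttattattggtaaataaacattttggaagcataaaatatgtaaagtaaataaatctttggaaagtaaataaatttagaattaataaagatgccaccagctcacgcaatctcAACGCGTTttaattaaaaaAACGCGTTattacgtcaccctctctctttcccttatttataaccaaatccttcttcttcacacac
CML23: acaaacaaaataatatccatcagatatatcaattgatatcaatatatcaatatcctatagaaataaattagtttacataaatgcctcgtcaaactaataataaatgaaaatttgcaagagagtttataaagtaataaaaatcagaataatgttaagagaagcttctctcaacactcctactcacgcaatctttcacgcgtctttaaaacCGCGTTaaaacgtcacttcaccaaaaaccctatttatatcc
RDUF1: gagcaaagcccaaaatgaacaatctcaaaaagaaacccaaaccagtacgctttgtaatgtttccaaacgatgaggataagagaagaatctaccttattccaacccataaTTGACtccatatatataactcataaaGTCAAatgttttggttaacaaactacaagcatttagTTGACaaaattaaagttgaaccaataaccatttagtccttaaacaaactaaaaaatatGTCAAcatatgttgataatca
RDUF2: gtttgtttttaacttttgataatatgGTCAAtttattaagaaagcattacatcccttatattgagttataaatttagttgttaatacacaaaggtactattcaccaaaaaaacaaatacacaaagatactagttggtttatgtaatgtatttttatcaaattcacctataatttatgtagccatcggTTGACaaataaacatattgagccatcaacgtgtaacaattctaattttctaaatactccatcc
ZAT10: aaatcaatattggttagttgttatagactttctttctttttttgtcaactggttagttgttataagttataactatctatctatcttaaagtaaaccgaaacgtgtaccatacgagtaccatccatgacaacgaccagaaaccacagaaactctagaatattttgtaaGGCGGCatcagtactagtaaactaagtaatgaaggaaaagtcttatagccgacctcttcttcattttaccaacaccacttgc
ZAT6: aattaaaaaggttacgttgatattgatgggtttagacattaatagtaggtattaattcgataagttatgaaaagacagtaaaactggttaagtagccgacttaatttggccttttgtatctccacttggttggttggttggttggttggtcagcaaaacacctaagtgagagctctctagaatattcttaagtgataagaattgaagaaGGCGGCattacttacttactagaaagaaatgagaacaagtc

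In Col-0 the 83 genes together took 0.115% to 0.163% of all tags in water, 0.567% to 0.782% at 8 min and 1.36% to 2.05% at 15 min. At 30 min the share was 0.581% to 0.988% and at 60 min 0.180% to 0.263%. The 15 min libraries were thus above all others, and the 60 min libraries lay only just above those in water. Peak levels ran from 20.5 TPM for CRF3, a cytokinin response factor, to 1376 TPM for the zinc finger repressor ZAT10. The sharpest decline relative to the peak was that of the ethylene response factor ERF104, whose peak mean was 128 times its 60 min mean plus 1, ahead of AT4G27657 at 65.5 times, AT3G46080 at 59.9 times, ZAT7 at 54.7 times and CAF1a at 47.8 times.

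Several genes lay close to the limits of the choice. CRF3 at 20.5 TPM and 3xHMG-box2 at 21.0 TPM were the lowest peaks kept, whereas AT2G18193 at 18.8 TPM and AT3G19390 at 18.5 TPM were left out on this limit alone. The ratio of peak to water plus 1 was 4.07 for GLYI7 and 4.09 for AT1G21400, just inside, and 3.90 for LHCB2.3 and 3.77 for HB-12, just outside. The ratio of peak to 60 min plus 1 was 4.04 for ERF5 and 4.15 for AT5G57510, inside, and 3.95 for NSP5 and 3.89 for AT2G20560, outside.

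**Figure D1:**
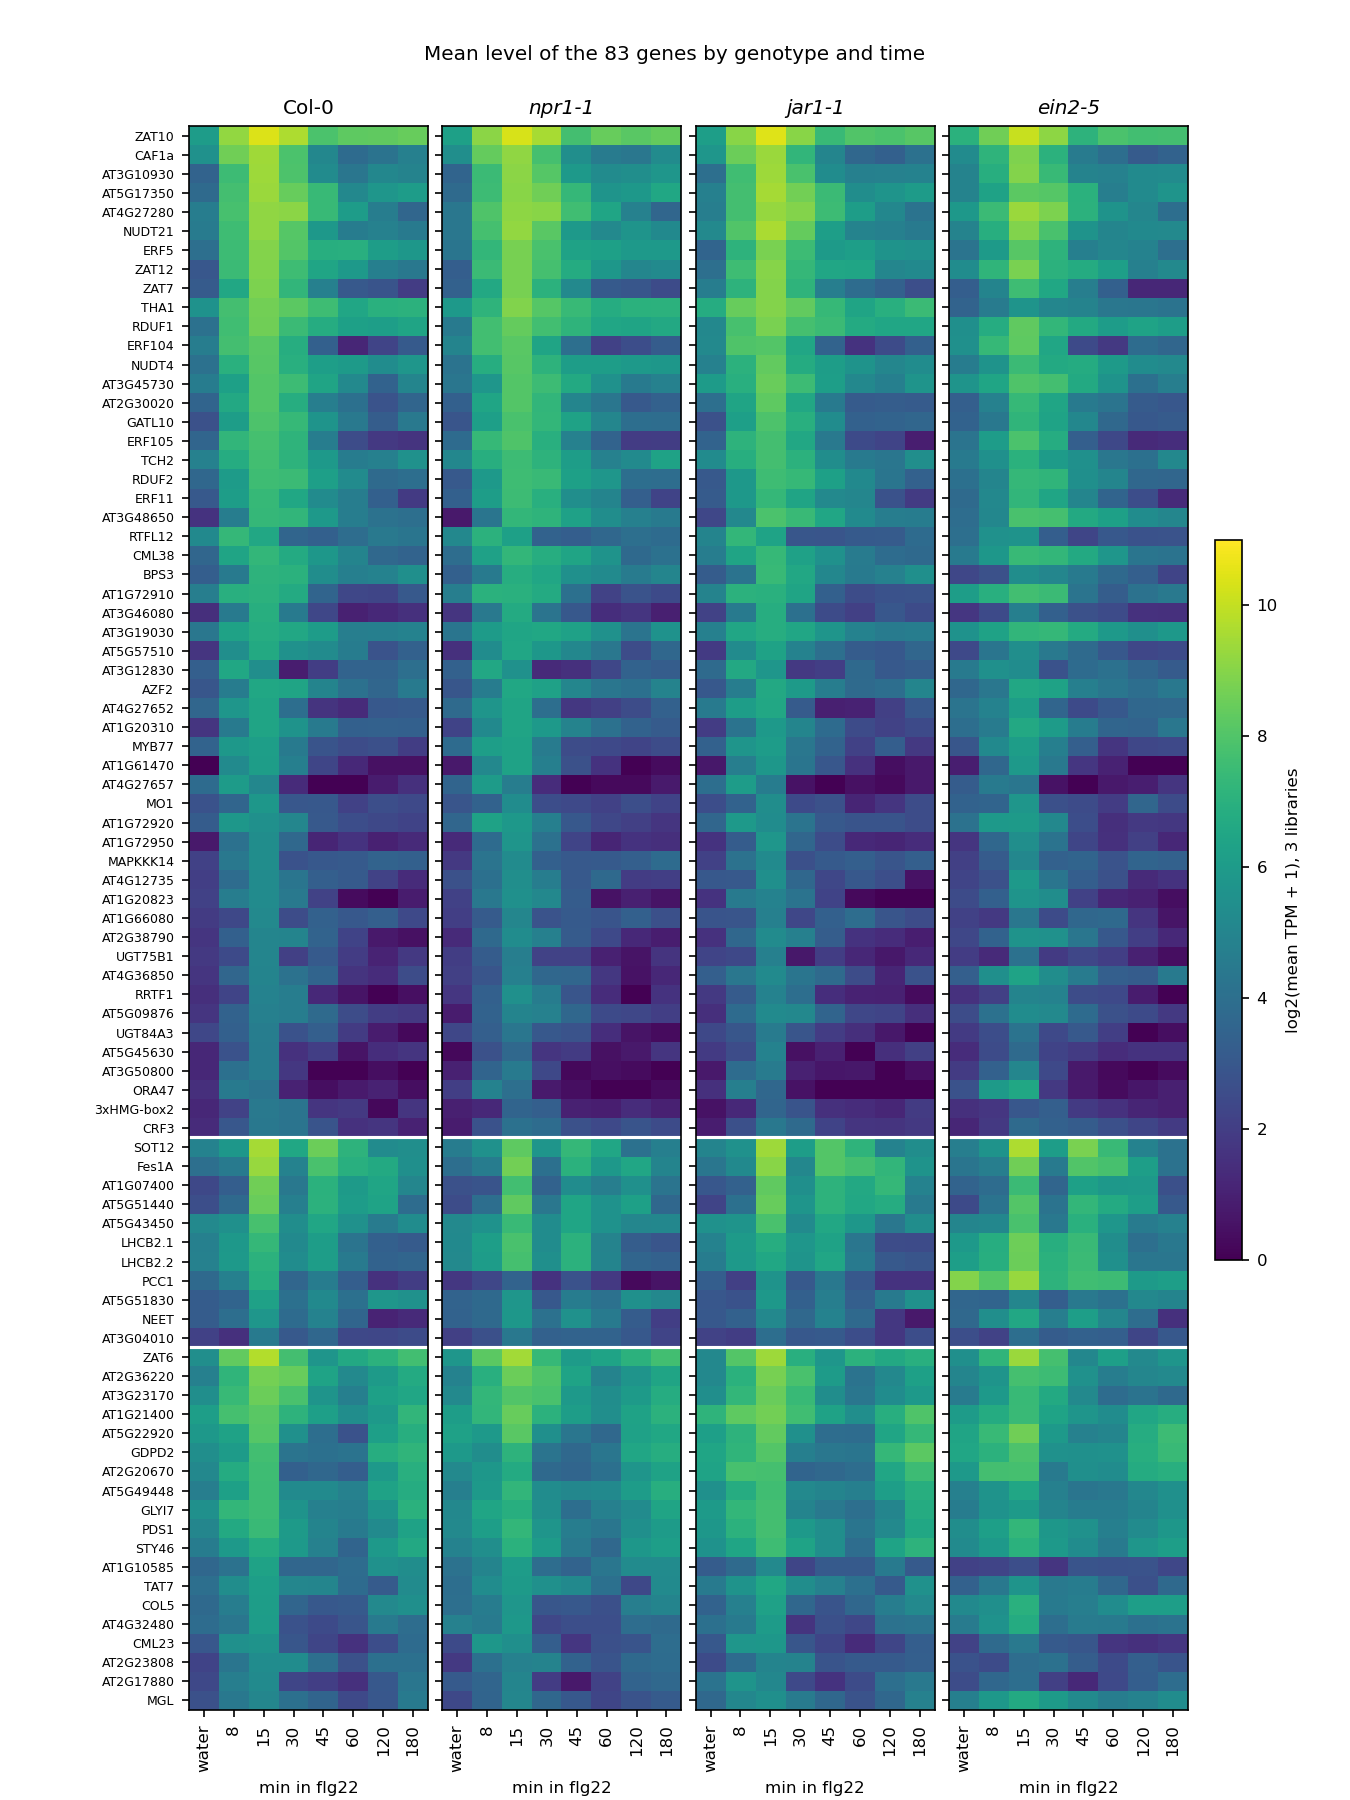
Mean level of the 83 genes over 3 libraries in water and at each time in flg22, by genotype, as log2(mean TPM + 1) from dark (low) to yellow (high). White lines set apart, from top to bottom, 53 genes with no later high in Col-0, 11 with a renewed high at 45 min and 19 that were high again at 180 min; the yellow column at 15 min stands in all 4 genotypes.

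The pulse was also present in the 3 mutants (edgeR quasi-likelihood test, one model of all 96 libraries, called at a Benjamini-Hochberg adjusted p below 0.01 over 16816 sense and antisense features). All 83 genes passed the filter on low counts. At 15 min against water, 76 genes rose in npr1-1, where 10.3% of all features were called higher, 78 rose in jar1-1 against 11.2% of features, and 68 rose in ein2-5 against 4.19%. The median change of the 83 was 3.46, 3.14 and 2.72 on the log2 scale in the 3 mutants, where the median of all features was 0.05, 0.04 and 0.01. In all, 66 genes rose in all 3 mutants, 10 in 2, 4 in 1 and 3 in none, these being AT4G27657, LHCB2.1 and LHCB2.2. All 3 libraries at 15 min lay above all 3 in water for 79 genes in npr1-1 (18.1% of features), 81 in jar1-1 (18.6%) and 77 in ein2-5 (11.6%).

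From 15 to 60 min, 70 of the 83 genes fell in npr1-1 (9.29% of features were called lower), 72 in jar1-1 (10.9%) and 62 in ein2-5 (6.74%). The median change was -2.64, -2.84 and -2.27 on the log2 scale, against -0.09, -0.06 and -0.04 over all features. Both steps, up by 15 min and down by 60 min, were called in all 3 mutants for 54 genes, in 2 for 10, in 1 for 12 and in none for 7. Of the 8 conditions, 15 min had the highest mean for 74, 74 and 76 of the 83 genes in the 3 mutants. Peak times were not counted over all loci, so these numbers have no background to stand beside. When the whole rule was applied to each mutant, 66 loci met it in npr1-1, of which 54 were among the 83, 83 loci in jar1-1, of which 60, and 61 loci in ein2-5, of which 45.

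Fewer genes were called at 8 min. In npr1-1 45 genes had risen (1.25% of features), in jar1-1 41 (0.928%) and in ein2-5 6 (0.0416%, or 7 features in all), and the median changes were 2.01, 1.78 and 0.91. The 6 in ein2-5 were ZAT10, ZAT12, NUDT21, ORA47, MYB77 and AT3G10930. With the lane as a replicate block 15 genes were called in ein2-5, whereas none was called without replicate 1, without replicate 2 or in a fit of the ein2-5 libraries alone; at an unadjusted p below 0.05, 59, 61 and 44 genes were higher in the 3 mutants. Without replicate 3 the counts in npr1-1 and jar1-1 were 27 and 26. From 8 to 15 min 41, 43 and 43 genes rose further (4.53%, 5.89% and 2.71% of features) and none was called lower in the edgeR test (0.482%, 0.672% and 0.0951% of features), 2, 2 and 0 being lower at an unadjusted p below 0.05; without replicate 3 these counts were 22, 25 and 12, and with ein2-5 fitted alone its count was 21. All of those that rose belonged to the 78 with a Col-0 peak at 15 min. The shares of all features at an unadjusted p below 0.05 were not counted.

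**Figure D2:**
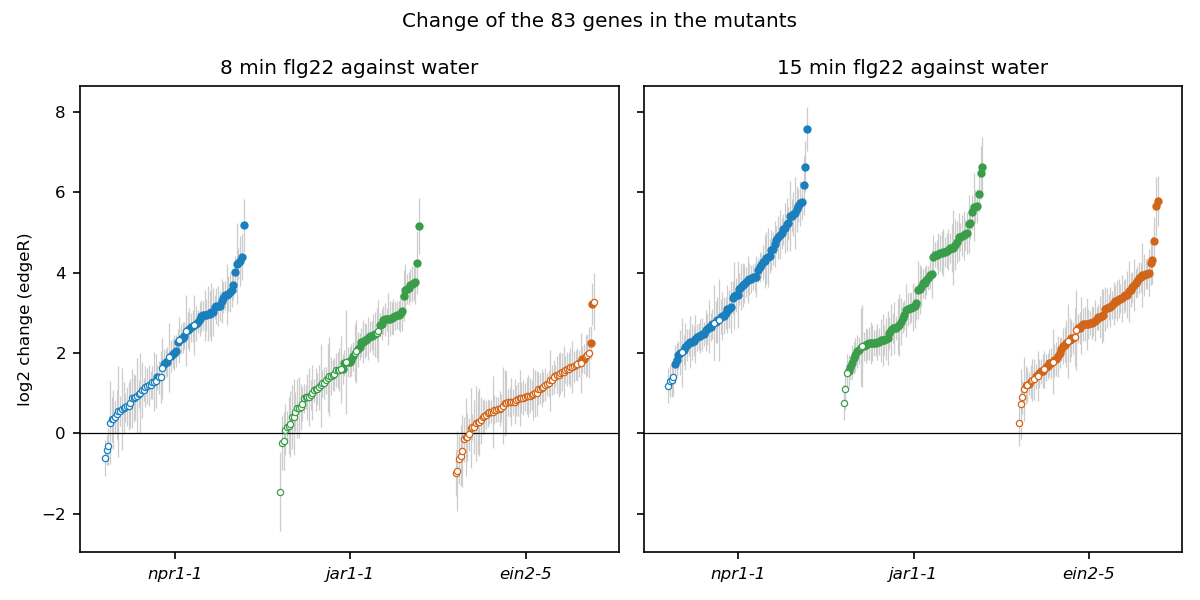
Change from water of each of the 83 genes at 8 min and at 15 min of flg22 in npr1-1, jar1-1 and ein2-5, on the log2 scale with bars for the standard error. Filled points were called at an adjusted p below 0.01; at 15 min 76, 78 and 68 points are filled, and at 8 min 45, 41 and 6.

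Transcription factors made up the largest annotated class. Among them were 6 zinc finger proteins of the C2H2 class, a family known as transcriptional repressors in stress responses. All 6 rose at 15 min and fell by 60 min in each mutant, and at 8 min 6, 6 and 2 of them had risen in npr1-1, jar1-1 and ein2-5. Their median change at 15 min was 4.83, 4.47 and 3.36 on the log2 scale. ZAT10, known for its part in salt, cold and light stress, had the highest peak of all 83 genes, at 1477, 1551 and 1099 TPM in the Col-0 libraries at 15 min, 76.9, 50.8 and 74.1 TPM in water and 368, 327 and 236 TPM at 60 min. The peak libraries stood far above those in water and at 60 min, and at 60 min all 3 were still above those in water. In npr1-1 ZAT10 had 108, 53.2 and 63.2 TPM in water and 1102, 1236 and 1490 TPM at 15 min, in jar1-1 93.5, 59.2 and 62.1 and then 1313, 1417 and 1499 TPM, and in ein2-5 148, 82.9 and 161 and then 886, 1089 and 1240 TPM. Groups did not overlap in any mutant, and the log2 changes were 4.2 ± 0.31 (SE, n = 3 against 3, adjusted p = 6.83e-19), 4.45 ± 0.31 (1.33e-19) and 2.85 ± 0.29 (3.33e-12). From 15 to 60 min ZAT10 fell by 1.62, 2.06 and 1.92 on the log2 scale, and it remained above water at 60 min in all 3 mutants (adjusted p = 4.56e-12, 7.05e-11 and 0.00527).

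ZAT6, a close relative, reached 940, 976 and 635 TPM in Col-0 at 15 min from 60.7, 28.4 and 38.8 TPM in water, and had 209, 244 and 148 TPM at 180 min. It thus had a partial late return that ZAT10 lacked. In the mutants it rose by 3.84 ± 0.35, 4.45 ± 0.37 and 3.73 ± 0.35 at 15 min, and a rise from 60 to 180 min was called in npr1-1 only (1.16 ± 0.32, adjusted p = 0.00476), with values of -0.28 ± 0.32 in jar1-1 and -0.66 ± 0.33 in ein2-5; whether these differ was not tested. ZAT12, a gene of oxidative stress responses, went from 6.75, 8.58 and 5.54 TPM in Col-0 water to 485, 574 and 395 TPM at 15 min and 22.7, 23.4 and 15.1 TPM at 180 min. AZF2 was lower, with 88.1, 116 and 76.7 TPM at 15 min, and was the one zinc finger gene of this class whose 30 min libraries, at 105, 61.5 and 89.6 TPM, overlapped those at 15 min. ZAT7 and AT3G46080 are neighbours on the chromosome with similar sequence, and since tags matching several genes were split between them their counts are not independent. ZAT7 had 519, 514 and 349 TPM at 15 min in Col-0 and 11.1, 5.09 and 6.13 TPM at 60 min, and AT3G46080 124, 138 and 96.2 and then 1.58, 0.728 and 0.681 TPM. Both returned to the water level, and in the mutants ZAT7 fell by 5.48, 4.80 and 4.18 on the log2 scale from 15 to 60 min.

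The AP2/ERF family gave 7 of the 83 genes, among them ERF5, ERF104, ERF105 and the repressor ERF11. All 7 rose at 15 min in each mutant, and 6, 7 and 6 fell by 60 min, with median changes of -4.29, -4.26 and -3.49 on the log2 scale. ERF104, known as a partner of the MAP kinase MPK6 in the response to flg22, had 267, 360 and 240 TPM in Col-0 at 15 min, and 236, 244 and 150 TPM already at 8 min. By 60 min it was at 2.37, 0.728 and 0.681 TPM, below every water library (27.0, 23.7 and 22.2 TPM). This undershoot was also found in the mutants, where ERF104 at 60 min differed from water by -2.69 ± 0.51, -3.53 ± 0.56 and -3.99 ± 0.53 on the log2 scale (adjusted p = 8.45e-06, 2.11e-07 and 6.52e-09). ERF105 had 196, 268 and 177 TPM at 15 min in Col-0 and 3.95, 3.64 and 6.81 TPM at 60 min, against 11.5, 11.2 and 10.4 TPM in water. Its level at 60 min was below water in ein2-5 (-1.90 ± 0.52, adjusted p = 0.00272), while the changes in npr1-1 and jar1-1 were -0.03 ± 0.46 and -0.64 ± 0.55.

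ERF5 and ERF11 declined more slowly. ERF5 had 541, 542 and 418 TPM in Col-0 at 15 min and still 126, 115 and 127 TPM at 60 min, against 18.2, 10.6 and 16.6 TPM in water. In the mutants ERF5 at 60 min stayed above water by 2.37 ± 0.39 in npr1-1 and 3.25 ± 0.41 in jar1-1 (adjusted p = 4.34e-07 and 4.75e-10), and the 0.98 ± 0.39 in ein2-5 was not called (adjusted p = 0.0443). ERF11 had 173, 197 and 120 TPM at 15 min and 30.0, 29.8 and 12.9 TPM at 60 min, and its further fall from 60 to 180 min was called in all 3 mutants (-3.19 ± 0.50, -3.60 ± 0.53 and -3.17 ± 0.65). CRF3, the weakest of the 83, had 23.7, 27.2 and 10.6 TPM at its peak, and its rise in ein2-5 of 2.72 ± 0.65 (adjusted p = 0.0025) was not called when any replicate was left out (adjusted p from 0.0236 to 0.0605). ORA47, a regulator of jasmonate biosynthesis genes, is one of the 5 genes with an 8 min peak, at 27.1, 29.6 and 7.91 TPM in Col-0. In npr1-1 and jar1-1 no tag of ORA47 was counted at 60 min, which allows up to 0.632 and 0.659 TPM. In ein2-5 ORA47 had 5.27, 4.18 and 7.84 TPM in water and 99.0, 160 and 23.2 TPM at 15 min.

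**Figure D3:**
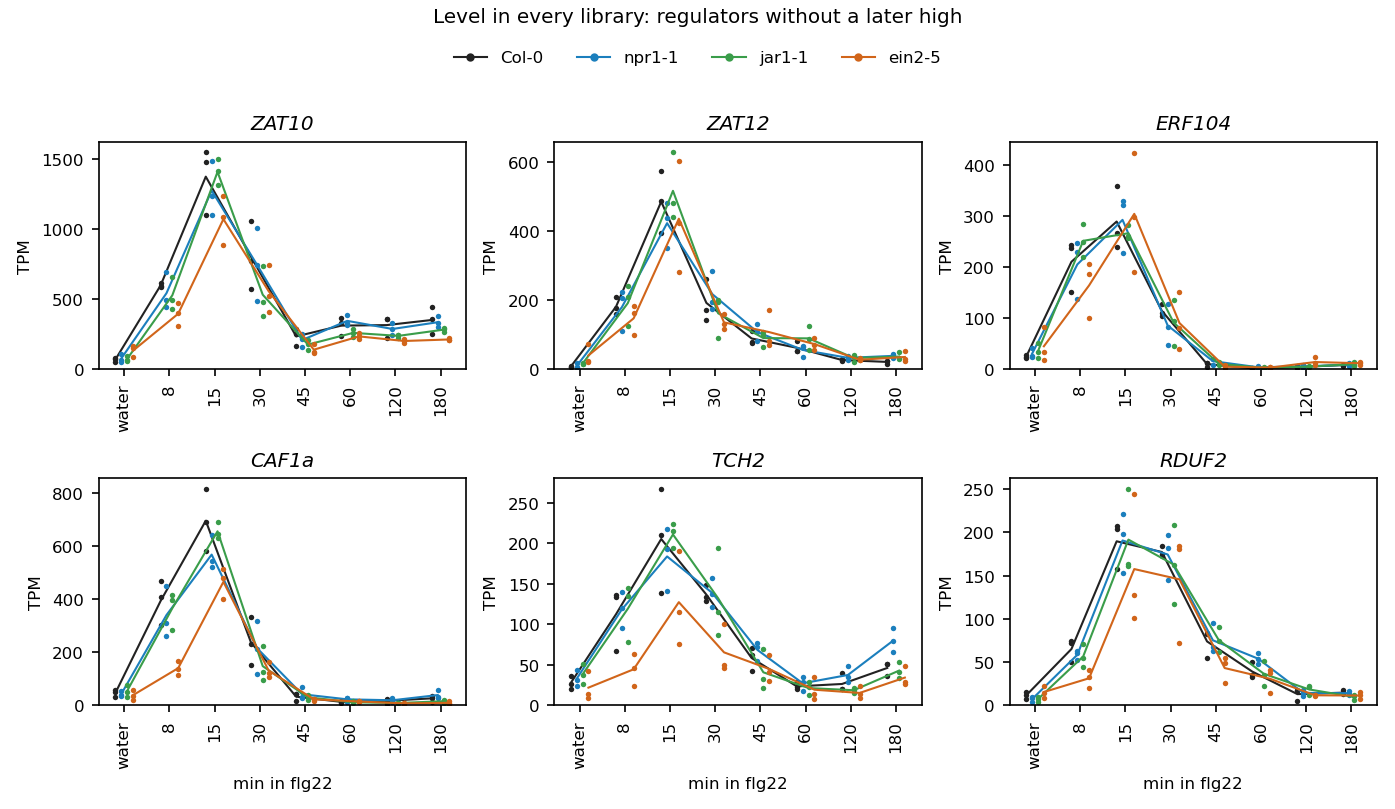
Level in every library, in TPM, of ZAT10, ZAT12, ERF104, CAF1a, TCH2 and RDUF2 by time in flg22, with water at the left and the 4 genotypes in separate colours; lines join the means of 3 libraries. All 6 genes peak at 15 min in Col-0, and at 60 min ERF104 lies below its water libraries, while ZAT10 stays above them.

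A pair of deadenylases of the CCR4-NOT complex, which shortens poly(A) tails and so starts the decay of messages, followed the same course. CAF1a, known to act in defence and wound responses, had 56.7, 33.0 and 50.6 TPM in Col-0 water, 690, 816 and 582 TPM at 15 min and 17.4, 12.4 and 10.9 TPM at 60 min. Every 60 min library was thus below every water library. In the mutants CAF1a rose by 3.84 ± 0.40, 3.75 ± 0.40 and 3.44 ± 0.40 at 15 min and its changes from there to 60 min were -4.32, -5.38 and -4.67 on the log2 scale. It ended below water in jar1-1 (-1.63 ± 0.41, adjusted p = 0.000724), and the changes of -0.47 ± 0.39 in npr1-1 and -1.24 ± 0.41 in ein2-5 were not called. AT1G61470, which RefSeq names only as a ribonuclease H-like protein and which was grouped with the CAF1 genes, had no tag in the 3 Col-0 water libraries, which allows up to 0.675 TPM. It reached 48.2, 36.4 and 26.0 TPM at 8 min, 81.5, 75.9 and 50.9 TPM at 15 min and 0.790, 0.728 and 2.72 TPM at 60 min. In npr1-1, jar1-1 and ein2-5 AT1G61470 had at most 1.81 TPM in any water library and at least 47.9 TPM in any library at 15 min (adjusted p = 1.15e-13, 1.35e-12 and 6.23e-11).

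Calcium sensors were represented by TCH2, CML23, CML38 and the EF-hand protein AT4G27280. All 4 rose at 15 min and fell by 60 min in each mutant, and all 4 had risen by 8 min in npr1-1 and jar1-1. None of the 4 was called at 8 min in ein2-5, and the difference of ein2-5 from the other mutants at 8 min was called for none of them either. TCH2, a calmodulin-like gene first known for its response to touch, had 35.8, 27.0 and 20.8 TPM in Col-0 water, 210, 267 and 138 TPM at 15 min and 19.7, 28.4 and 22.5 TPM at 60 min. It rose by 2.59 ± 0.38, 2.62 ± 0.38 and 2.38 ± 0.39 at 15 min in the mutants (adjusted p = 8.46e-08, 5.79e-08 and 4.02e-06). CML23 was already at its height at 8 min, with 49.4, 44.4 and 42.9 TPM against 46.7, 58.9 and 41.7 TPM at 15 min, and it was down to 8.20, 2.90 and 8.83 TPM at 30 min. No other calcium sensor of the 4 had left its peak so far by 30 min. The change of CML23 from 8 to 15 min was -0.13 ± 0.35, 0.24 ± 0.35 and 0.73 ± 0.41 in the mutants, and its call at 15 min in ein2-5 was lost without replicate 1 (adjusted p = 0.0126). AT4G27280 was the most abundant of the 4 and the slowest, with 509, 656 and 570 TPM at 15 min and 700, 454 and 493 TPM at 30 min in Col-0. The 2 sets of libraries overlapped. CML38 had 180, 157 and 121 TPM at 15 min, 149, 64.8 and 100 TPM at 30 min and 46.5, 22.0 and 21.2 TPM at 60 min.

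The RING finger class, whose members are known or predicted ubiquitin ligases, held RDUF1, RDUF2, AT1G20823 and AT5G22920, and all 4 rose by 15 min and fell by 60 min in each mutant. RDUF1 had 22.9, 11.2 and 14.5 TPM in Col-0 water, 411, 421 and 358 TPM at 15 min and 91.6, 67.7 and 69.4 TPM at 60 min. RDUF2, its close relative, had 15.5, 11.9 and 7.62 TPM in water, 204, 207 and 158 TPM at 15 min and 173, 174 and 184 TPM at 30 min. RDUF1, at 209, 145 and 185 TPM at 30 min, had left its peak, whereas the 15 and 30 min libraries of RDUF2 overlapped. Of the kinases and phosphatases, AT2G30020, the phosphatase AP2C1 that acts on MAP kinases, had 7.76, 10.6 and 13.9 TPM in water and 263, 300.03 and 239 TPM at 15 min in Col-0, and rose by 4.99 ± 0.38, 4.52 ± 0.37 and 3.96 ± 0.37 in the mutants. MAPKKK14 had 3.37, 4.62 and 2.08 TPM in water and 45.3, 43.8 and 32.4 TPM at 15 min.

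Other well-expressed genes of the same course were less well characterised. NUDT21, a nudix hydrolase, had 16.9, 31.7 and 19.4 TPM in Col-0 water, 555, 649 and 523 TPM at 15 min and 26.9, 24 and 19.1 TPM at 60 min, and rose by 5.09 ± 0.39, 4.61 ± 0.37 and 3.89 ± 0.36 in the mutants. AT3G10930, which RefSeq names only as an uncharacterized protein, had 10.1, 10.6 and 10.4 TPM in water and 589, 796 and 615 TPM at 15 min. AT5G17350, named likewise, had 12.8, 5.94 and 20.1 and then 595, 742 and 631 TPM. These 3 were among the 10 highest peaks. The 3 TIR domain genes AT1G72910, AT1G72920 and AT1G72950, which lie close together on chromosome 1 and may share tags, rose in all 3 mutants. AT1G72920 peaked at 8 min in Col-0, with 60.0, 59.8 and 46.9 TPM against 32.2, 58.0 and 43.3 TPM at 15 min. AT4G27657, an uncharacterised gene next to AT4G27652, had an early course: 71.8, 79.7 and 45.2 TPM at 8 min, 49.3, 27.9 and 21.2 TPM at 15 min, 1.82, 1.45 and 1.36 TPM at 30 min and no tag at 45 or 60 min, which allows up to 0.901 and 0.730 TPM. AT4G27657 rose at 8 min in npr1-1 and jar1-1 (2.57 ± 0.45 and 2.1 ± 0.43, adjusted p = 5.53e-05 and 0.00128), and at 15 min it was called in no mutant, apart from npr1-1 with the replicate block (adjusted p = 0.00341).

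When the Col-0 means were sorted by what followed the peak, 53 genes had no later high, 11 had a mean at 45 min at least 1.5 times that at 30 min, and 19 a mean at 180 min at least 2 times that at 60 min. These classes were set after the values were seen and need a level of 10 TPM at the later time. A gene that met both limits was put with the 11, as was AT5G51830, whose 180 min mean was 2.98 times that at 60 min. The limits split close values: the ratio of 180 to 60 min was 2.02 for ZAT6, inside, and 1.98 for CAF1a and 1.96 for TCH2, outside. UGT75B1 and AT1G66080, among others, had ratios of 45 to 30 min of 2.38 and 1.94 but stayed below 10 TPM at 45 min. In the classes of 53, 11 and 19 genes, the level at 8 min was 0.379, 0.137 and 0.463 of that at 15 min in the median gene. In the mutants 41, 37 and 6 of the 53 genes had risen at 8 min, 4, 4 and 0 of the 19, and none of the 11 in any mutant. The libraries of a group also agreed less well in the class of 11: the highest of the 3 Col-0 libraries at 15 min was 4.77 times the lowest in the median gene, against 1.5 times in the 53 and 1.48 times in the 19.

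The 11 genes with the renewed high at 45 min included chaperones, light-harvesting proteins and a sulfotransferase. Fes1A, a nucleotide exchange factor of Hsp70 chaperones induced by heat, had 16.2, 11.9 and 17.4 TPM in Col-0 water, 24.7, 22.4 and 16.3 TPM at 8 min and 591, 1059 and 213 TPM at 15 min. It was back to 31.6, 36.8 and 15.6 TPM at 30 min and at 184, 383 and 116 TPM at 45 min, so that 2 separate highs followed each other in every lane. The mutants had the same order of levels: Fes1A rose by 4.95 ± 0.62, 4.94 ± 0.61 and 4.31 ± 0.60 from water to 15 min, and by 3.11 ± 0.58, 3.22 ± 0.57 and 3.62 ± 0.58 from 30 to 45 min (adjusted p = 0.000389, 0.000106 and 1.41e-05). SOT12, a sulfotransferase that can act on salicylic acid, had 1046, 921 and 198 TPM at 15 min, 127, 79.6 and 74.0 TPM at 30 min and 435, 481 and 180 TPM at 45 min. Its rise from 30 to 45 min was called in jar1-1 (2.20 ± 0.54, adjusted p = 0.00723) and ein2-5 (2.81 ± 0.55, 0.000443) and not in npr1-1 (1.72 ± 0.54, 0.0539).

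Over the class of 11, 1, 2 and 4 genes were called higher at 45 than at 30 min in npr1-1, jar1-1 and ein2-5, where 0.815%, 1.37% and 1.06% of all features were, and the median change was 1.79, 1.61 and 1.5 on the log2 scale. This contrast was added after the values had been seen. No gene outside the 11 was called higher, and 11, 13 and 16 of the 83 were called lower (0.333%, 0.5% and 0.66% of features). With the replicate block the genes called in either direction numbered 31, 27 and 30 in place of 12, 15 and 20 (1.15%, 1.87% and 1.72% of features). None was called higher in npr1-1 without replicate 1 or in jar1-1 without replicate 3. Each time point has its own barcode, so that a barcode and a time cannot be told apart here. In a separate experiment the paper reports very high correlations between libraries of the same RNA that carried different barcodes. The part of the barcode in the class of 11 was not tested.

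LHCB2.1 and LHCB2.2, near-identical light-harvesting proteins of photosystem II that may share tags, were called in no mutant at 8 or 15 min. LHCB2.1 had 366, 36.3 and 74.4 TPM in Col-0 at 15 min and 43.9, 25.4 and 11.8 TPM in water, so that replicate 1 alone lay far above the rest. Replicate 1 was also highest at 15 min in npr1-1 (551, 57.4 and 78.7 TPM), jar1-1 (175, 71.8 and 94.7 TPM) and ein2-5 (847, 109 and 192 TPM). The changes of LHCB2.1 at 15 min were 2.82 ± 1.02, 2.16 ± 1.02 and 2.57 ± 1.00 on the log2 scale (adjusted p = 0.0361, 0.118 and 0.092). With the lane as a replicate block both genes were called in all 3 mutants, LHCB2.1 at 2.30, 2.19 and 2.28 and LHCB2.2 at 2.32, 2.32 and 2.04, and without replicate 1 both were called in jar1-1 only; without the filter on low counts both were called in all 3. LHCB2.3, a further gene of this family, was left out of the 83 by a water ratio of 3.90.

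**Figure D4:**
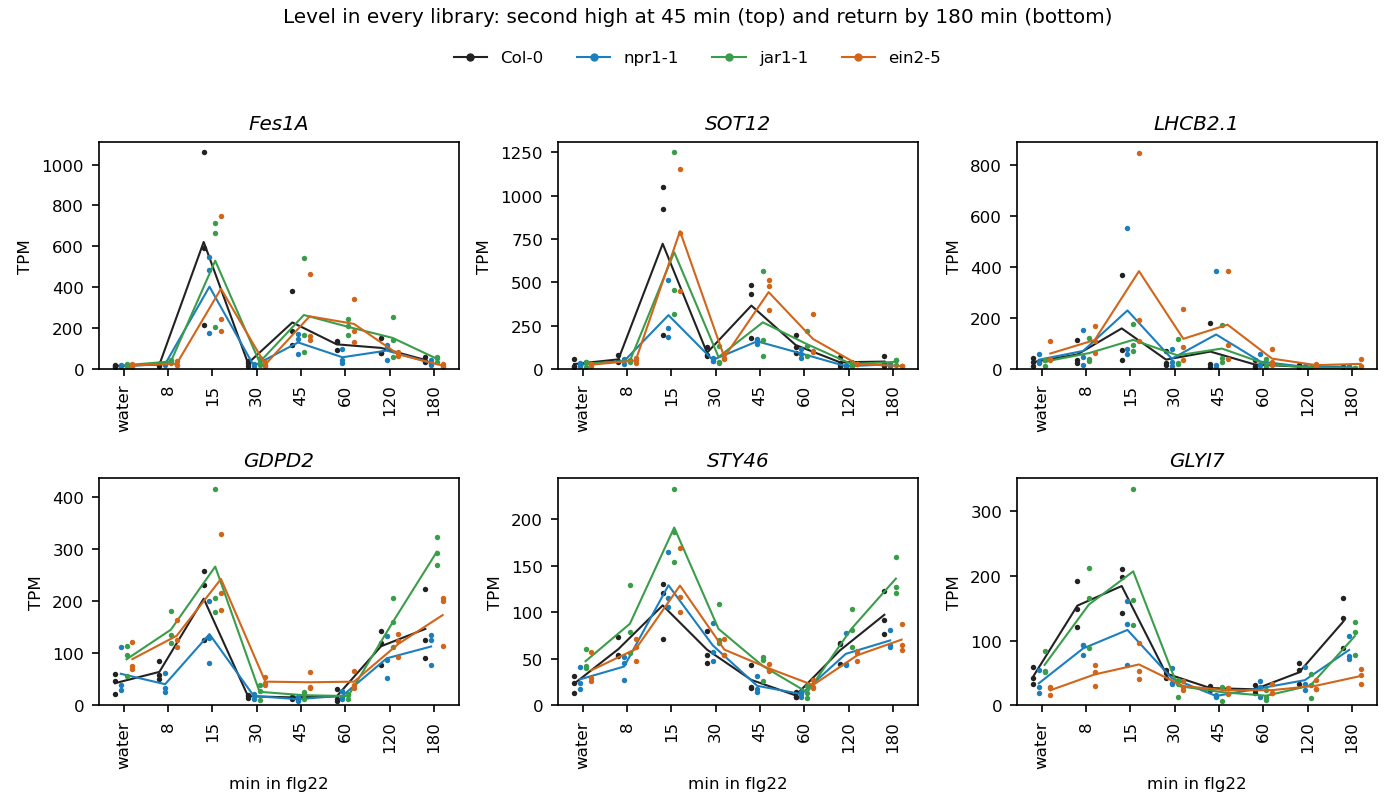
Level in every library, in TPM, of Fes1A, SOT12 and LHCB2.1 (top) and of GDPD2, STY46 and GLYI7 (bottom) by time in flg22, with water at the left and the 4 genotypes in separate colours; lines join the means of 3 libraries. The top genes are high at 15 and again at 45 min, with replicate 1 of LHCB2.1 far above the others, and the bottom genes are low at 30 to 60 min and higher at 180 min.

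The 19 genes that were high again at 180 min included 4 of the 5 enzymes of amino acid catabolism, among them TAT7, a tyrosine aminotransferase, PDS1, the dioxygenase that makes homogentisate, and MGL, a methionine gamma-lyase. All 5 enzymes rose at 15 min in each mutant and none at 8 min in any. AT1G21400, a thiamine diphosphate-binding protein counted with them, had 103, 60.0 and 47.4 TPM in Col-0 water, 269, 329 and 276 TPM at 15 min, 41.9, 35.3 and 44.3 TPM at 60 min and 176, 147 and 130 TPM at 180 min. It rose from 60 to 180 min in all 3 mutants (1.5 ± 0.30, 2.38 ± 0.30 and 1.37 ± 0.30), but its rise at 15 min in ein2-5 (1.24 ± 0.29, adjusted p = 0.00206) was not called without any single replicate (adjusted p from 0.0103 to 0.116). PDS1 rose from 60 to 180 min by 1.61 ± 0.36 in npr1-1 and 2.12 ± 0.36 in jar1-1 (adjusted p = 0.000397 and 4.3e-06), and its 0.93 ± 0.35 in ein2-5 was not called (0.0448).

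The late return was strongest, relative to the peak, for STY46, GDPD2 and GLYI7, at 0.906, 0.717 and 0.703 of the peak mean in Col-0. STY46, a protein kinase that phosphorylates plastid transit peptides, had 121, 71.0 and 131 TPM at 15 min, 14.2, 8.73 and 9.53 TPM at 60 min and 123, 77.4 and 91.6 TPM at 180 min. GDPD2, a glycerophosphodiester phosphodiesterase known from phosphate starvation, had 126, 258 and 232 TPM, then 30.8, 9.46 and 12.3 TPM and then 224, 127 and 90.6 TPM at these times. The peak and 180 min libraries of both genes overlapped. From 60 to 180 min STY46 rose by 2.39 ± 0.40, 3.07 ± 0.39 and 1.5 ± 0.37 in the 3 mutants and GDPD2 by 2.45 ± 0.46, 3.83 ± 0.48 and 1.79 ± 0.44, all called. In ein2-5 the early rise of STY46 was not called without replicate 2 or without replicate 3 (adjusted p = 0.0627 and 0.204), nor was that of GDPD2 in jar1-1 (0.0349 and 0.0372). The early peak of GDPD2 was called in jar1-1 (1.76 ± 0.43, adjusted p = 0.00105) and not in npr1-1 (0.0177) or ein2-5 (0.0545); with the replicate block it was called in both (0.0043 and 0.00654). GLYI7, a member of the glyoxalase family, rose from 60 to 180 min in npr1-1 and jar1-1 (1.57 ± 0.42 and 2.65 ± 0.44), and its change in ein2-5 was 0.81 ± 0.43 (0.17). The early rise of GLYI7 was called in npr1-1 and jar1-1 with all replicates, in npr1-1 not without replicate 2 or 3 and in jar1-1 not without replicate 2. In ein2-5 its early change of 1.29 ± 0.42 was called with the replicate block (adjusted p = 0.00629) and without the filter on low counts (0.00795).

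Of the 19 genes, 12, 15 and 4 rose from 60 to 180 min in npr1-1, jar1-1 and ein2-5, and none fell. Over all 83 genes 13, 17 and 4 rose (6.77%, 7.90% and 6.02% of features) and 8, 8 and 15 fell (8.93%, 9.88% and 8.36%), so that in ein2-5 the share that rose was near the background. Whether ein2-5 differed from the other mutants in this step was not tested. In either direction 21, 25 and 19 genes were called (15.7%, 17.8% and 14.4% of features), and without replicate 3 these numbers dropped to 8, 15 and 12; without replicate 1 or 2 they were at most 17. At 60 min against water, 30, 22 and 10 genes were called higher (19.6%, 20.5% and 13.4% of features) and 6, 12 and 7 lower (17.3%, 18.0% and 9.57%), and in ein2-5 the share called higher was not above the background. This balance depended on the scaling: by total tags alone 24, 14 and 7 genes were higher and 12, 18 and 8 lower, and by size factors 26, 20 and 5 were higher and 9, 15 and 8 lower. In either direction 34 genes were called in jar1-1 and 17 in ein2-5, which dropped to 20 without replicate 1 and to 9 without replicate 2. ERF104, AT4G27657, AT5G22920 and AT1G72910 were lower than in water in all 3 mutants.

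The response of ein2-5 was set against the mean of npr1-1 and jar1-1 to see in which of the 83 genes the mutants differed beyond the spread between libraries. At 15 min 5 genes changed less from water in ein2-5 (1.58% of features) and none more (0.0238%): AT3G48650, ZAT12, AT5G17350, RDUF2 and ZAT10. At an unadjusted p below 0.05 the edgeR test gave 31 lower and 0 higher, and the share of all features at that limit was not counted. Over all features the adjusted calls leaned the same way, with 265 lower and 4 higher. At 8 min 6 genes changed less (0.232% of features) and none more: GATL10, AT3G48650, ZAT12, RDUF2, AT5G17350 and RDUF1. The 8 min contrast was added after the values had been seen. At an unadjusted p below 0.05 it gave 38 lower and 0 higher, again without a count over all features. The adjusted calls over all features were 39 lower and 0 higher.

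In most genes of both sets the water libraries of ein2-5, which both contrasts share, were themselves high. ZAT12 had 23.3, 21.6 and 73.0 TPM in ein2-5 water, 16.3, 6.76 and 2.94 TPM in npr1-1 and 13.8, 18.4 and 13.7 TPM in jar1-1, whereas at 15 min it had 281, 422 and 602 TPM in ein2-5, 351, 437 and 479 TPM in npr1-1 and 481, 627 and 440 TPM in jar1-1. The 15 min libraries overlapped and those in water did not. The change of ZAT12 was smaller in ein2-5, by -2.1 ± 0.42 on the log2 scale (adjusted p = 0.000696), and its water level was higher by 2.08 ± 0.30 (9.68e-08). For ZAT10 these values were -1.47 ± 0.33 (0.00363) and 1.25 ± 0.23 (1.87e-05), and for RDUF2 -1.71 ± 0.39 (0.0042) and 1.49 ± 0.30 (9.88e-05).

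AT3G48650, a transcribed pseudogene in RefSeq, had 15.8, 5.58 and 21.1 TPM in ein2-5 water, tags in only 1 of the 3 npr1-1 water libraries (2.04 TPM) and 4.35, 3.40 and 4.55 TPM in jar1-1. At 15 min AT3G48650 had 143, 234 and 314 TPM in ein2-5, 127, 162 and 173 TPM in npr1-1 and 221, 258 and 237 TPM in jar1-1. The water libraries did not overlap and those at 15 min did, and the fitted difference of -2.98 ± 0.53 (adjusted p = 0.000159) rests in part on counts near 0. AT5G17350 differed in both, with 351, 209 and 342 TPM at 15 min in ein2-5 against 458, 530 and 610 TPM in npr1-1 and 702, 874 and 624 TPM in jar1-1. No ein2-5 library of AT5G17350 reached the lowest of the other mutants at that time, and its difference was -1.99 ± 0.42 (adjusted p = 0.00167), beside a water level higher by 1.10 ± 0.30 (0.00621). GATL10, a galacturonosyltransferase-like protein, showed the largest difference at 8 min, with 23.7, 24.6 and 13 TPM in ein2-5 against 57.0, 76.7 and 85.2 TPM in npr1-1 and 67.0, 78.7 and 74.8 TPM in jar1-1 (-2.67 ± 0.48, adjusted p = 0.000502).

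In water alone 17 genes were higher in ein2-5 (7.42% of features) and 1 was lower (1.57%). The largest difference was that of PCC1, a small protein controlled by pathogens and the circadian clock, with 191, 1162 and 153 TPM in ein2-5, 2.81, 0.845 and 3.68 TPM in npr1-1 and 5.80, 14.3 and 6.31 TPM in jar1-1 (6.89 ± 0.58, adjusted p = 1.17e-15). The change of PCC1 at 15 min in ein2-5 was 0.26 ± 0.56 and was not called. The gene that was lower was THA1, a threonine aldolase, with 17.1, 3.48 and 10.9 TPM in ein2-5, 86.8, 48.2 and 43.6 TPM in npr1-1 and 160, 64.6 and 114 TPM in jar1-1 (-2.45 ± 0.46, 3.24e-05). THA1 still rose at 15 min in ein2-5 by 1.92 ± 0.51 (0.00731).

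These differences depended on single replicates. Replicate 3 of ein2-5 at 15 min was the smallest of the 96 libraries, with 388691 tags, and its part in these differences was not tested. Without replicate 3 no gene was called at 8 or 15 min and 7 in water, and without replicate 2 the counts were 3, 1 and 16; with the replicate block they were 13, 9 and 20. Scaled by total tags alone they were 2, 2 and 10. Genotype, flow cell and lanes cannot be told apart here.

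Related genes outside the 83 give the setting of these values. The lists were chosen with earlier results of these data known, and 6 of the 11 tested ZAT and AZF zinc finger genes, 3 of the 13 group IX ERF genes, 3 of the 12 calmodulin-like genes and 2 of the 7 CAF1 deadenylases tested are among the 83. At 15 min 8, 8 and 7 of the ZAT and AZF genes rose in npr1-1, jar1-1 and ein2-5, 7, 8 and 8 of the group IX ERF genes, 8, 8 and 6 of the calmodulin-like genes and 3, 3 and 3 of the CAF1 genes. The median change of these lists was 3.88, 4.45 and 2.89 for ZAT and AZF, 2.20, 2.78 and 2.62 for group IX ERF, 3.11, 2.75 and 1.51 for calmodulin-like and 0.68, 0.99 and 1.03 for CAF1 genes, beside medians of all features of 0.05, 0.04 and 0.01. Of 19 WRKY genes of immunity, none is among the 83, although 14, 15 and 6 of them rose at 15 min (10.3%, 11.2% and 4.19% of features). From 15 to 60 min 9, 8 and 8 of the WRKY genes were called higher (10%, 9.66% and 8.73% of features). In the same step 2, 1 and 1 were called lower (9.29%, 10.9% and 6.74% of features). Of the 11 ZAT and AZF genes 6, 7 and 6 fell, but 6 of the 11 are among the 83, which were chosen for a low level at 60 min in Col-0.

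Further lists held none or 1 of the 83 genes, and their counts stand beside the 10.3%, 11.2% and 4.19% of all features that were called higher at 15 min. The 3 PUB ubiquitin ligases rose at 15 min in npr1-1 and jar1-1 and 1 did in ein2-5, and 3 of 9 tandem CCCH zinc finger genes rose in each mutant. Among 3 touch genes, of which TCH2 is one, 3, 3 and 2 rose, and among 3 tested CBF and DREB genes 2, 2 and 1. Of 6 group VIII ERF genes, which include ERF11, 3, 2 and 2 rose, of 11 JAZ repressors 2, 2 and 1, and of 6 EXORDIUM family genes 2, 3 and 2. The EXORDIUM genes fell from 15 to 60 min in 5, 6 and 5 of 6 cases, where 9.29%, 10.9% and 6.74% of all features were called lower.

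Tags on the antisense strand were counted apart. For 38 of the 83 genes the antisense feature passed the filter, and 25, 23 and 12 of these rose at 15 min in npr1-1, jar1-1 and ein2-5 and none was called lower, where 10.5%, 10.1% and 2.85% of all antisense features did. Antisense tags stood at a median of 4.41%, 4.08% and 3.80% of the sense level at 15 min and at 5.09%, 5.02% and 3.91% in water, with single genes from 0.618% to 23.1% at 15 min. For ZAT10 in Col-0 the mean antisense level was 0.676 TPM in water and 12.8 TPM at 15 min. An antisense feature that passed the filter only through its level in flg22 had to differ, so these counts are a description. The part of imperfect strand marking in these values was not tested.

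The 80 protein-coding genes among the 83 were often without introns. In RefSeq on TAIR10.1, 45 of them had 1 exon (56.2%), against 20.5% of 27443 coding genes and 13.2% of the 13975 coding genes tested. The median number of exons was 1, against 4 and 5, and the median transcript length 1302.5 bases against 1517 and 1726 bases. The other 3 were AT3G48650 and AT2G23808, transcribed pseudogenes, and AT5G49448, which had no entry.

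In the stretch from 250 bases before to 50 after the transcript start, the TTGAC core was in 53.8% of the 80 genes, close to its share of 50.5% of all coding genes and 52.3% of those tested. RDUF1 has 4 matches, 141 to 21 bases before the start, and RDUF2 has 2, at 224 and 63 bases before it. Of the 80 genes 17 had 2 or more matches, and the share of all coding genes with as many was not counted. GCCGCC was in 8.75% of the 80 genes, or 7 genes, against 2.57% and 2.88%, with ZAT10 at 82 and ZAT6 at 41 bases before the start among them. CGCGTT was in 8.75% against 3.40% and 4.14%; TCH2 carries it as 2 palindromic AACGCGTT sites, each read on both strands, 84 to 63 bases before the start, and CML23 has 1 match 41 bases before it. CACGTG, the G-box, was in 12.5% against 7.68% and 9.04%, CCGAC, the core of the DRE, which can overlap GCCGCC, in 21.2% against 15.0% and 16.6%, and TATAAA in 52.5% against 52.1% and 51.3%. With 7 genes each, the 2 rarer motifs rest on few matches, and no test was made.

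**Figure D5:**
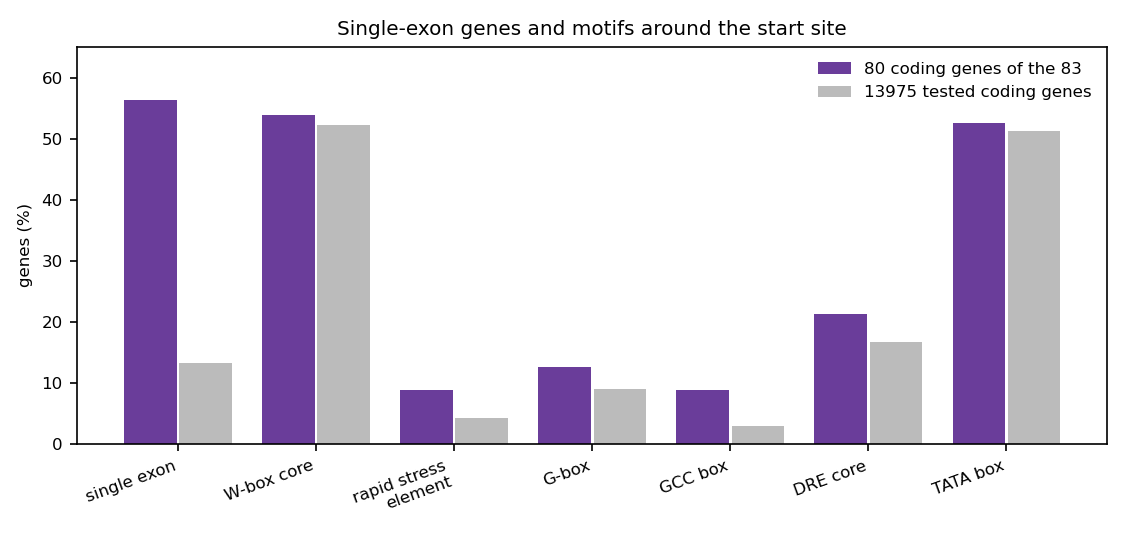
Share, in percent, of genes with 1 exon and of genes with each motif on either strand from 250 bases before to 50 bases after the transcript start, for the 80 coding genes of the pulse and the 13975 coding genes tested. The largest gap is that for genes with 1 exon, at 56.2% against 13.2%, and the shares for TTGAC and TATAAA lie side by side.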

How the data were processed

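EXPRSS Tag-seq libraries were made from total RNA with an oligo-dT primer, and poly(A) RNA was not selected beforehand. The cDNA was randomly sheared by acoustic waves, so that 1 directional tag near the 3′ end stands for each cDNA, with 1 barcode per time point. The authors filtered tags by quality, kept perfect barcodes, mapped tags with Bowtie 0.12.8 to TAIR10 and then to its transcripts, and assigned them to genes in perl; the deposited values are estimated counts per sense or antisense locus, in which a tag matching up to 10 genes was split equally among them.

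Estimated counts were scaled to TPM for the choice of genes and rounded for the tests. Rounding changed library totals by -0.0506% to -0.0122%. All 96 libraries entered 1 edgeR quasi-likelihood model (edgeR 4.0.16, R 4.3.3; filterByExpr with a minimum count of 10 and total of 15; TMM factors from 0.723 to 1.43), with a group for each genotype and time. Values after ± are standard errors, and p-values were adjusted by Benjamini-Hochberg over 16816 features and called below 0.01. Gene structure and sequence came from RefSeq on TAIR10.1, and loci were matched by locus code (43 of the 83 have a RefSeq symbol).

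The deposited lane description puts each replicate number of a genotype in 1 lane, so the numbers pair libraries. The main model left out this pairing, and the replicate block among the alternatives used it. Within lanes, deviations from group means correlated at a mean r of 0.347, 0.408, 0.340 and 0.604 in wild type, npr1-1, jar1-1 and ein2-5. Each mean covered 84 pairs, and the lowest values were 0.019, 0.050, -0.072 and 0.327. Between lanes the mean r was -0.173, -0.203, -0.170 and -0.300. The means between lanes are negative by construction, since the deviations within a group cancel.

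The genes, their functional classes and the lists of related genes were chosen with earlier results of these data known. Genes named by rule were the 10 highest peaks, the 5 largest ratios of peak to 60 min, genes in a list, those nearest each threshold, the 3 largest differences of ein2-5 in each direction, the 3 highest at 180 min relative to the peak and those called in no mutant at 8 or 15 min; others were named after their values were seen. Alternatives were other scalings, no filter, DESeq2 1.42.0, a replicate block, fewer libraries, each replicate left out, and other settings of the rule. Levels without tags are limited by 3 tags over the 3 libraries of a group.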

Additional observations from a re-analysis of the deposited data

Results flagged for a closer look

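The change from water to 15 min of flg22 differed between ein2-5 and the mean of npr1-1 and jar1-1 for 5 of the 83 genes by a test of the difference itself. The largest differences on the log2 scale were -2.98 for AT3G48650, -2.10 for ZAT12 and -1.99 for AT5G17350. None of the 5 was called without replicate 3, and the water libraries of ein2-5 enter every one of these values.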

How the results depend on the processing

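No called change of a named gene at 15 min changed sign in any alternative run, but the balance of genes higher and lower at 60 min against water did: from 22 and 12 to 14 and 18 in jar1-1 by total tags, and in ein2-5 from 10 and 7 to 5 and 8 by size factors, 7 and 8 by total tags or DESeq2, and 6 and 8 without organelle loci. With the lane as a replicate block, genes called were 31 in npr1-1 and 27 in jar1-1 for 45 against 30 min (from 12 and 15), 15 in ein2-5 at 8 min (from 6), and 9 and 13 for the ein2-5 difference at 15 and 8 min (from 5 and 6); counts of calls elsewhere stayed within 1.5 times. Without the filter they were 28 in npr1-1 for 45 against 30 min, 12 in ein2-5 at 8 min and 9 for the difference at 15 min. By total tags alone the differences at 15 min, at 8 min and in water gave 2, 2 and 10 genes (from 5, 6 and 18), and the median of all features from 15 to 60 min moved to -0.36, -0.44 and -0.30. In fits of only the genotypes compared, ein2-5 gave 0 at 8 min, 21 from 8 to 15 min and 10 at 60 min against water, 4 higher and 6 lower (from 43 and 17 for the last ones), and its difference at 8 min 2. A ratio of 3 or 6 in the rule gave 127 or 42 genes, TMM scaling 62, of which 57 were among the 83. Without Col-0 replicate 1, 2 or 3 the rule gave 79, 66 or 91 genes, of which 66, 64 or 76 were among the 83. Leaving out 1 replicate gave, for npr1-1, jar1-1 and ein2-5, 27 to 40, 26 to 31 and 0 to 6 at 8 min, 67 to 69, 63 to 73 and 49 to 52 at 15 min, 22 to 24, 25 to 28 and 12 to 30 from 8 to 15 min, 28 to 32, 20 to 26 and 9 to 13 at 60 min against water, 8 to 13, 13 to 17 and 11 to 14 for 180 against 60 min, and 1 to 8, 3 to 9 and 12 to 17 for 45 against 30 min. The ein2-5 difference then gave 0 to 4 at 15 min, 0 to 7 at 8 min and 7 to 16 in water. The cause of these changes was not tested. Of the alternative counts of genes called 193 stayed within 1.5 times and 47 did not, and of the alternatives for named genes 918 kept their side of the threshold, 21 lost and 21 gained a call.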
